A study of Gossypium hirsutum with 12 samples.

Results

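The genes described here were higher in water-stressed cotton root tips at 24 h than in watered root tips of the same age, and lower again in stressed root tips at 48 h. They were chosen by level. Read counts were divided by the library's total over genes and scaled to counts per 1000000 (CPM), and R(a/b) was the log2 ratio of 2 group means after 0.5 CPM was added to each. A gene was a member if R(WS24/WS48) and R(WS24/WW24) were each at least 1, R(WW48/WW24) lay within 0.5 of 0, both watered means were at least 1 CPM, and the lowest WS24 library lay above the highest WS48 and the highest WW24 library. The rule found 44 of 70477 genes. It used measured values, so the levels that fit it are given as description with no test.

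The groups were WS24 and WS48, harvested 24 h and 48 h after seedlings were moved to vermiculite at -1.0 MPa, and WW24 and WW48, grown for the same times in well-watered vermiculite at -0.02 MPa. All 12 libraries, 3 in each group, came from primary root tips of dark-grown upland cotton (*Gossypium hirsutum*) seedlings of cultivar AU90810, with many tips combined in a sample and replicates from independent experiments. The excised tip was 6 mm long in stressed roots and 12 mm in watered roots, in each case the whole elongation zone, so treatment and tip length cannot be told apart. WW48 is the control of the same age for WS48, and WW24 the control of similar root length. Reads assigned to genes numbered 6433993 to 11316010 per library. In such bulk tissue, fewer cells of a type and less RNA per cell cannot be told apart.

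A growing root tip that meets dry soil slows its elongation, shortens its elongation zone and accumulates osmolytes and abscisic acid. Many transcripts that rise under water deficit stay high while the deficit lasts, and others rise only for a time after its start. Cotton is an allotetraploid with an A and a D subgenome. A gene ID such as Gh_A06G1838 names the subgenome and chromosome (A06) and the gene's number along it, and an ID with Sca names a scaffold that was not placed on a chromosome.

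A function was available for 1 of the 44 members, from the study's supplementary tables, which hold functions of 1767 genes (2.51% of all genes) and were selected on these samples. That member was Gh_A06G1838, annotated as purple acid phosphatase 10. Purple acid phosphatases are metal-containing enzymes that release phosphate from organic compounds, and plant roots secrete several of them when phosphate is scarce. Its level was 44.8, 40.1 and 44.5 CPM in the WS24 libraries and 23.9, 17.4 and 20.9 CPM in the WS48 libraries, against 0.821, 2.21 and 1.15 CPM in the WW24 libraries and 1.73, 2.33 and 1.62 CPM in the WW48 libraries. The 3 WS24 libraries were alike and about double the WS48 libraries, and every stressed library lay far above every watered library. The WS24 mean was 31.0 times the WW24 mean and 2.08 times the WS48 mean.

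At 48 h purple acid phosphatase 10 was still higher under stress. The rule did not set WS48 against WW48 or WW24, but the function came from a table of genes that the study had selected for differing at 48 h from both controls in these samples, so the values that follow are not independent of that choice. Its WS48 mean of 20.7 ± 3.22 CPM compared with 1.89 ± 0.384 CPM in WW48 (SD, n = 3 each). The log2 fold change WS48/WW48 was 3.44 ± 0.28 (SE; adjusted p = 1.59e-05, edgeR's quasi-likelihood test with Benjamini-Hochberg adjustment over 43938 genes), and WS48/WW24 was 3.74 ± 0.29 (adjusted p = 9.79e-06 in the same model). Of its excess over WW24, 46.3% was left at 48 h, the highest value among the 44, whose median was 2.25%. The rule limits this share, and more tightly in members with a smaller rise at 24 h. Purple acid phosphatase 10 had the largest rise, with an R(WS24/WW24) of 4.53.

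**Figure D1:**
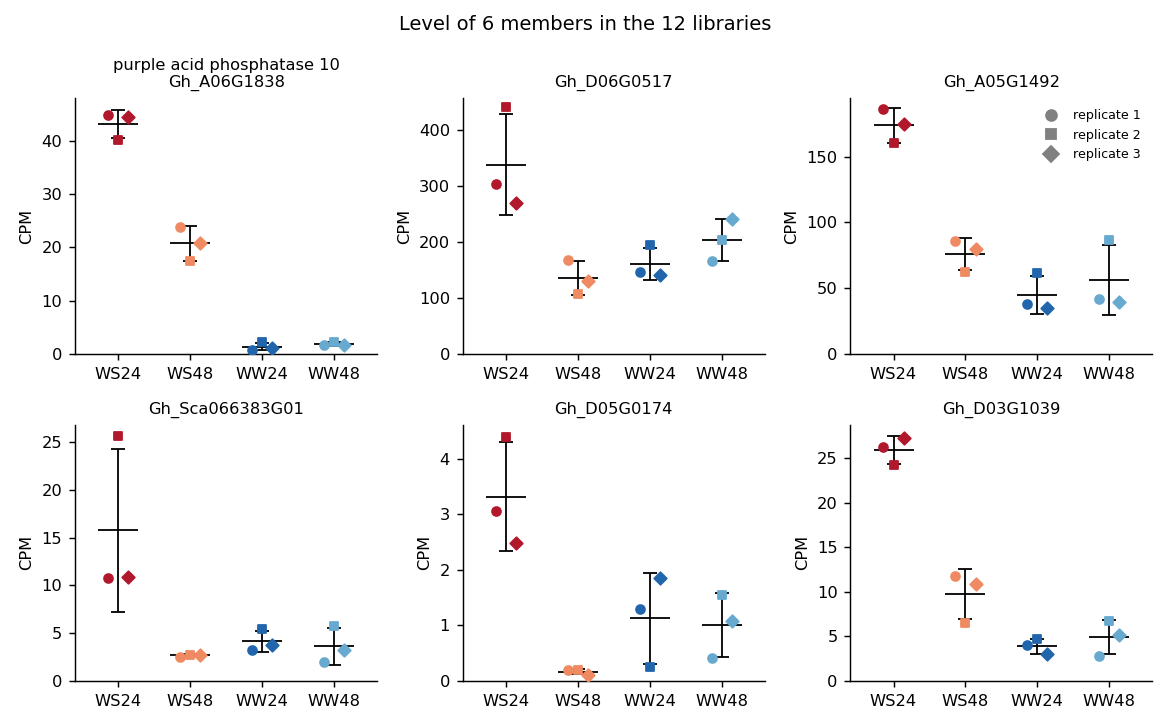
Level in CPM (y axis, linear from 0) of 6 members in the 3 libraries of WS24, WS48, WW24 and WW48; markers show the replicate, and the long bar and whiskers are the mean and SD. Purple acid phosphatase 10 (Gh_A06G1838) stayed above both watered groups at 48 h of stress, with 20.7 CPM in WS48, whereas Gh_D06G0517, with a mean of 135 CPM in WS48, overlapped WW24.

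The list of genes of phosphate supply, picked by words in the functions, held 8 genes, all of them tested, and it was the only one of the 24 word lists with a member in it. Purple acid phosphatase 10 was the only member with a function, so no other member could be in a list. Purple acid phosphatase 17 (Gh_D11G0018) had a similar course, but it was no member, since its watered means were under 1 CPM and its R(WW48/WW24) was 0.74: 9.22, 8.22 and 7.79 CPM in WS24 and 4.32, 3.48 and 3.37 CPM in WS48, against 0.117, 0.246 and 0.619 CPM in WW24 and 0.815, 0.933 and 0.897 CPM in WW48. R(WS24/WS48) was 1.04 in purple acid phosphatase 10 and 1.08 in purple acid phosphatase 17. Both genes were lowest in watered roots and highest in WS24. Purple acid phosphatase 12 (Gh_A05G1622) averaged 10.7 ± 1.81 CPM in WS24 and 8.31 ± 0.799 CPM in WS48, against 1.78 ± 0.829 CPM in WW24 and 1.64 ± 0.997 CPM in WW48 (SD, n = 3 each). Purple acid phosphatase 22 (Gh_D04G0974) averaged 10.6 ± 1.29 CPM in WS24 and 18.0 ± 2.38 CPM in WS48, against 5.16 ± 2.11 CPM in WW24 and 5.24 ± 1.28 CPM in WW48, so that its mean was higher at 48 h than at 24 h of stress. Of the 8 genes, 5 rose and 3 fell in WS48/WW48, and 4 rose and 2 fell in WS24/WW24. Those that fell in both were 2 genes named phosphate 1, after the *Arabidopsis thaliana* exporter that loads phosphate into the xylem, with log2 fold changes WS48/WW48 of -2.83 for Gh_A10G0984 (adjusted p = 0.000587) and -2.32 for Gh_D10G1565 (adjusted p = 0.000271, both by edgeR's quasi-likelihood test). Their watered levels were higher at 48 h than at 24 h, and against WW24 the changes in WS48 were smaller, at -1.09 (adjusted p = 0.0938) for Gh_A10G0984 and -1.10 (adjusted p = 0.0287) for Gh_D10G1565 in the same model. The other gene that fell in WS48/WW48 was Gh_A13G0731, annotated as a purple acid phosphatases superfamily protein. Its log2 fold change was -1.13 in WS48/WW48 (adjusted p = 0.0101) and -1.03 in WS48/WW24 (adjusted p = 0.0186, both by edgeR's quasi-likelihood test). The genes of this list were selected by the study on these samples, so their directions are not independent evidence.

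The other 43 members had no function in the sources used here and are given by ID. The members' WS24 means ranged from 3.1 to 338 CPM with a median of 12.1 CPM, and their WS48 means from 0.165 to 135 CPM with a median of 4.23 CPM. The WW24 means had a median of 3.74 CPM and the WW48 means one of 3.43 CPM. In the summed level of all 44 members, the WS24 libraries held 1280, 1760 and 1160 CPM and the WS48 libraries 569, 433 and 509 CPM, against 459, 492 and 424 CPM in WW24 and 404, 560 and 553 CPM in WW48. The sum in WS48 thus lay in the range of the watered libraries or just above it, and WS24 replicate 2 held the highest sum.

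The 2 highest members in WS24 were Gh_D06G0517 and Gh_A05G1492. Gh_D06G0517 had 304, 441 and 270 CPM in WS24 and 168, 108 and 130 CPM in WS48, against 147, 194 and 141 CPM in WW24 and 167, 203 and 242 CPM in WW48. Every watered library lay above the lower 2 WS48 libraries, and the highest WS48 library lay within the range of both watered groups. Gh_A05G1492 had 186, 160 and 175 CPM in WS24 and 85.5, 62.1 and 80.1 CPM in WS48, against 38.0, 61.4 and 35.3 CPM in WW24 and 41.8, 86.9 and 39.7 CPM in WW48. In both watered groups of Gh_A05G1492, replicate 2 was the high library and overlapped or neared the WS48 libraries.

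The largest R(WS24/WS48) was 2.52, in Gh_D05G0174, followed by 2.36 in Gh_Sca066383G01. Gh_D05G0174 was a rare transcript, with 32, 45 and 24 reads in the WS24 libraries and 2, 2 and 1 reads in the WS48 libraries, against 11, 2 and 21 reads in WW24 and 4, 10 and 12 reads in WW48. Its ratio between the stressed groups rests on 101 reads in WS24 and 5 reads in WS48. Gh_Sca066383G01 had 10.8, 25.6 and 10.9 CPM in WS24 and 2.55, 2.73 and 2.72 CPM in WS48, against 3.28, 5.41 and 3.71 CPM in WW24 and 1.94, 5.75 and 3.23 CPM in WW48. Its WS24 replicate 2 was more than double the other WS24 libraries, and those in turn lay above all 9 remaining libraries.

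Over the members, R(WS24/WS48) had a median of 1.38 and R(WS24/WW24) a median of 1.56, where the medians over the 39259 genes with at least 1 CPM in both watered groups were -0.01 and 0.12. TMM scaling, which put the median WS24/WW24 change of all genes tested at 0.0, left 41 genes under the rule, 39 of them members. Just inside the limit on R(WS24/WS48) were values of 1.02, 1.04 and 1.04, and just outside it, among genes that met all other conditions, 0.99, 0.96 and 0.96. The rule's steps left 29606 genes after the condition of a stable watered level, 778 after that of a rise at 24 h, 46 after that of a lower level at 48 h of stress, and 44 after that of non-overlapping libraries. In edgeR's model, 39 members were called higher in WS24/WW24 (background 3.75% of genes) and 19 were called lower in WS48/WS24 (background 0.255%) (a call needed an adjusted p of at most 0.05 together with a log2 fold change of 1 or more in size). The rule used both of these comparisons, and nothing is read from the counts.

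The same ratios were also read in libraries that the choice had not used. The rule was applied to the libraries of 2 replicate numbers, and the genes it picked were read in the libraries of the third number. Without replicate 1 the rule picked 62 genes, whose median R(WS24/WS48) was 1.15 in the held-out libraries, and 43.5% of them had both ratios at 1 or more there. Without replicate 2 it picked 39 genes, with a held-out median of 1.44 and 64.1% at 1 or more in both. Without replicate 3 it picked 54 genes, with a held-out median of 1.07 and 50.0%. Among all genes at 1 CPM or more, the medians in the held-out libraries were between -0.02 and 0.0 and 0.759%, 0.688% and 0.386% had both ratios at 1 or more. With replicates 1 and 3 held out, the median was lower than in the libraries used for the choice (1.39 and 1.42), and with replicate 2 held out it was higher than in those libraries (1.22). As described below, WS24 replicate 2 was high in many members and WW24 replicate 2 low in many genes. A high WS24 library raises both ratios, and a low WW24 library raises R(WS24/WW24). Their part in the values with replicate 2 held out was not tested.

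The members differed in which libraries carried their pattern. In 20 of the 44, WS24 replicate 2 was at least 1.5 times the mean of the other WS24 libraries, and replicate 2 was the highest WS24 library in 31 of the 44. The share of 45.5% compares with 2.72% of the 39259 genes at 1 CPM or more. The limit of 1.5 times was set after these values were seen. In these 20 members the median level was 10.8, 24.3 and 9.55 CPM in the WS24 libraries and 3.83, 3.16 and 3.65 CPM in the WS48 libraries, against 3.81, 4.3 and 3.71 CPM in WW24 and 3.11, 4.74 and 3.68 CPM in WW48. Their WS48 libraries were thus at the watered level, and WS24 replicate 2 stood above WS24 replicates 1 and 3, which in turn stood above the rest.

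The 3 members that follow, named after their values were seen, show this profile. Gh_A03G1169 had 33.8, 67.6 and 27.3 CPM in WS24 and 8.84, 5.93 and 9.14 CPM in WS48, against 9.74, 11.1 and 7.07 CPM in WW24 and 6.62, 9.48 and 8.62 CPM in WW48. Gh_D06G0518 had 39.8, 97.2 and 32.0 CPM in WS24 and 11.9, 8.1 and 13.8 CPM in WS48, against 7.98, 10.7 and 7.95 CPM in WW24 and 6.01, 10.9 and 9.15 CPM in WW48. Gh_Sca035048G01 had 29.9, 65.7 and 25.4 CPM in WS24 and 9.92, 5.27 and 8.49 CPM in WS48, against 8.33, 8.12 and 7.86 CPM in WW24 and 4.18, 8.7 and 6.01 CPM in WW48. In each of them the order of the WS24 libraries was the same, replicate 2 above replicate 1 above replicate 3, and the WS48 libraries lay among or just around the watered ones. WS24 replicate 2 also had the highest share of reads that did not align in its group, 20.2%, against 16.5% and 15.8% in WS24 replicates 1 and 3. The shares in all 12 libraries ran between 13.3% and 20.6%, and its part in the result was not tested. With WS24 replicate 2 left out, an alternative added after the data were seen, R(WS24/WS48) was still at least 1 in 19 of these 20 members and R(WS24/WW24) in 16 of them.

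**Figure D2:**
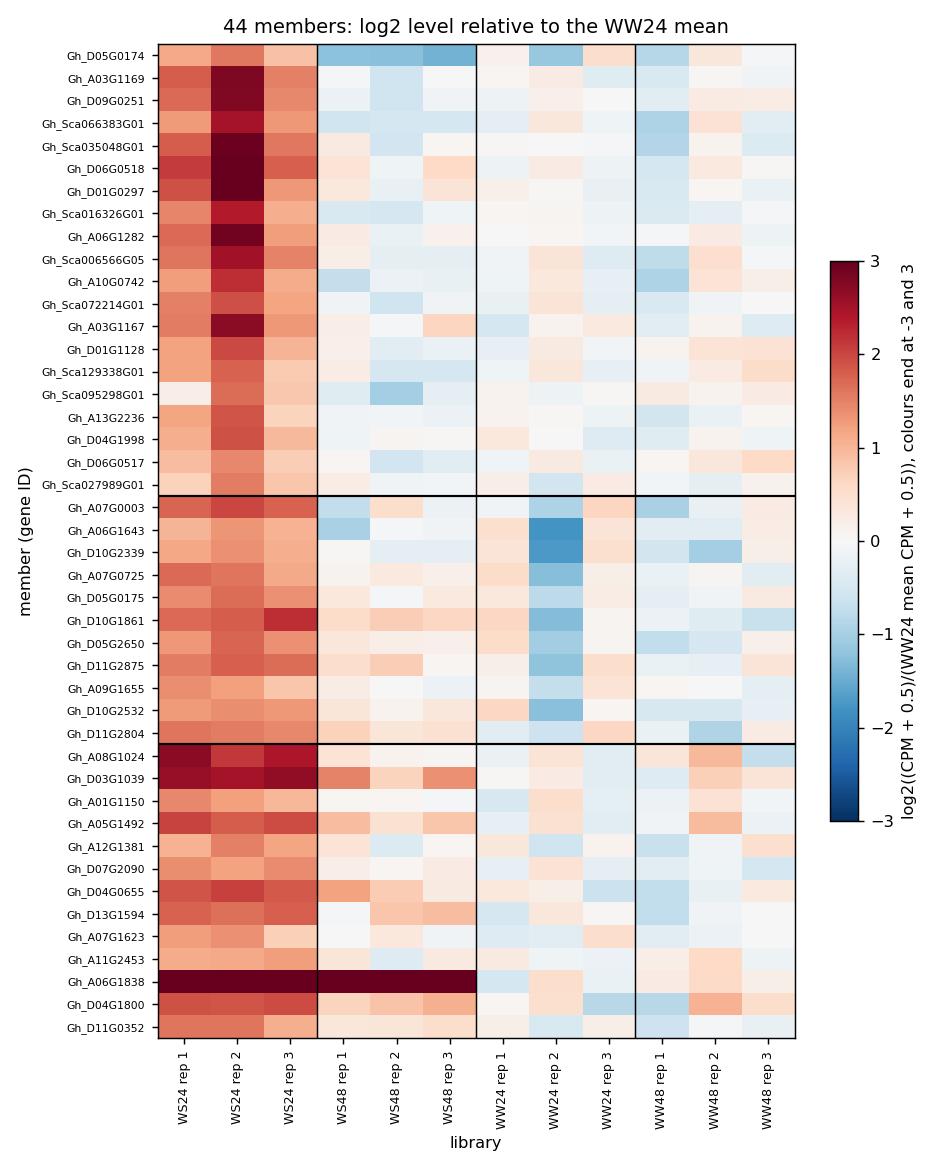
Level of each of the 44 members (rows, by gene ID) in the 12 libraries (columns), as log2((CPM + 0.5)/(WW24 mean CPM + 0.5)), with colours that end at -3 and 3. The horizontal lines separate the 20 members high in WS24 replicate 2, the 11 others low in WW24 replicate 2 and the remaining 13; in the first block the WS24 replicate 2 column stands out, with a median of 24.3 CPM.

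A second profile concerned the watered control at 24 h. In 12 members, 1 of them (Gh_D05G0174) also among the 20, WW24 replicate 2 was at most 0.5 times the mean of the other WW24 libraries. That share, 27.3%, compares with 15.9% of the genes at 1 CPM or more, so this library was low in many genes. In the 11 members with this profile alone, the median level was 10.3, 12.4 and 11.4 CPM in WS24 and 4.12, 4.61 and 4.24 CPM in WS48, against 4.57, 1.11 and 4.86 CPM in WW24 and 2.75, 2.64 and 4.4 CPM in WW48. The 3 WS24 libraries were alike in these members, and WW24 replicate 2 was the low one. Gh_D10G2532, chosen after its values were seen as the highest of them, had 93.1, 100 and 93.7 CPM in WS24 and 49.0, 41.1 and 48.2 CPM in WS48, against 58.5, 15.7 and 39.8 CPM in WW24 and 27.1, 26.9 and 31.9 CPM in WW48. With WW24 replicate 2 left out, R(WS24/WW24) was at least 1 in 7 of the 12 members, with a median of 1.14, against 1.49 with all libraries.

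The remaining 13 members, purple acid phosphatase 10 among them, had neither profile. No profile was set for a high WW24 replicate 2. In these 13, that library over the mean of the other WW24 libraries had a median of 1.65. The range was 0.508 to 2.25, the highest being purple acid phosphatase 10. The median level of these 13 members was 14.6, 11.1 and 11.9 CPM in the WS24 libraries and 4.61, 4.61 and 4.35 CPM in the WS48 libraries, against 3.05, 4.3 and 3.0 CPM in WW24 and 2.45, 3.73 and 4.13 CPM in WW48. They were highest in WS24 replicate 1 in 4 cases, in replicate 2 in 4 and in replicate 3 in 5. The largest R(WS24/WS48) among them was 2.24, in Gh_A08G1024, with 14.6, 9.58 and 11.9 CPM in WS24 and 2.55, 1.98 and 1.96 CPM in WS48, against 1.52, 2.58 and 1.33 CPM in WW24 and 2.45, 4.04 and 0.897 CPM in WW48. Its stressed libraries at 48 h lay within the range of the watered libraries. The median R(WS24/WS48) was 2.00 in the 20 members high in WS24 replicate 2, 1.28 in the 11 low in WW24 replicate 2 alone, and 1.13 in these 13. A high WS24 replicate 2 itself raises this ratio, and without that library the median of the 20 was 1.49.

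**Figure D3:**
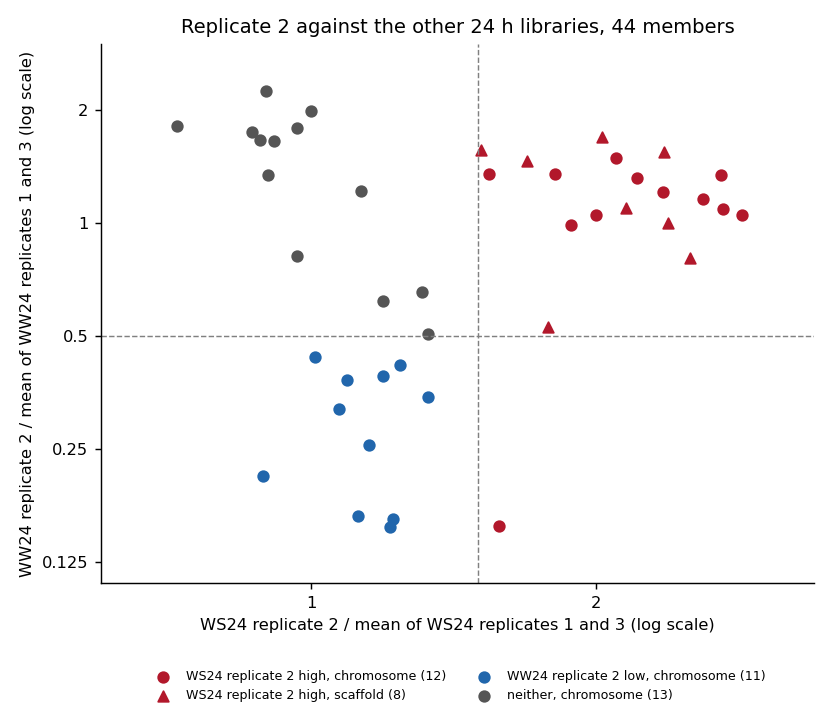
For each of the 44 members, the level in WS24 replicate 2 over the mean of WS24 replicates 1 and 3 (x axis, log scale) and the level in WW24 replicate 2 over the mean of WW24 replicates 1 and 3 (y axis, log scale); dashed lines mark 1.5 and 0.5, and triangles are genes on scaffolds. The 20 members to the right of 1.5 include all 8 genes on scaffolds, and Gh_D05G0174 alone lies both right of 1.5 and under 0.5.

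Members on unplaced scaffolds numbered 8 of 44 (18.2%), where 1.31% of the genes at 1 CPM or more and 5.74% of all genes lay on scaffolds, and all 8 were among the 20 members high in WS24 replicate 2. A further 16 members lay on the A and 20 on the D subgenome (36.4% and 45.5%, against 48.7% and 50.0% of the genes at 1 CPM or more), spread over 21 chromosomes. The share on scaffolds is a description, with no test, and genes on scaffolds can share reads with near-identical copies on chromosomes, for which the counts are uncertain.

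Several members lay next to each other by ID. Gh_D06G0517 and Gh_D06G0518 are consecutive IDs, as are Gh_D05G0174 and Gh_D05G0175, and Gh_A03G1167 and Gh_A03G1169 are separated by a single ID. The gene between them, Gh_A03G1168, had an R(WS24/WS48) of 1.02 and missed the rule by its R(WS24/WW24) of 0.76. Of 35 non-members next to a member and at 1 CPM or more, Gh_A03G1168 included, 5 (14.3%) had an R(WS24/WS48) of at least 0.5, against 5.49% of all genes at that level, and the median of the 35 was -0.02. Gh_A13G2237, beside Gh_A13G2236, had 12.7, 20.8 and 10.3 CPM in WS24 and 5.89, 4.71 and 5.55 CPM in WS48, against 5.63, 7.25 and 4.68 CPM in WW24 and 3.77, 3.57 and 4.31 CPM in WW48. Gh_D04G1999, beside Gh_D04G1998, had 8.54, 16.0 and 6.44 CPM in WS24 and 2.95, 3.77 and 4.57 CPM in WS48, against 4.57, 4.8 and 3.0 CPM in WW24 and 2.34, 2.95 and 2.96 CPM in WW48. Both neighbours missed the rule only by their R(WW48/WW24) of -0.54 and -0.51, and both were highest in WS24 replicate 2, as were the members beside them. These neighbours were chosen after their values were seen. The authors describe strand-specific libraries, but use of strand in counting was not stated. Reads counted as ambiguous between genes made up 0.158% to 0.205% of each library. The part of overlap between neighbours in these values was not tested.

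At 48 h R(WS48/WW48) had a median of 0.16 over the members. It lay within 0.5 of 0 in 32 of the 44 members (72.7%), a share near that of the genes at 1 CPM or more (69.4%). It was at least 0.5 in 9 members (20.5%, against 13.5% of those genes) and at most -0.5 in 3 (6.82%, against 17.1%). In edgeR's model 1 member was called higher in WS48/WW48 (background 3.18% of 43938 genes) and 1 was called lower (background 5.98%), counts of 2.27% each, at or under the background. An unadjusted p under 0.05 was found in 10 members (22.7%), against 31.0% of the genes tested in the same edgeR model. The member called higher was purple acid phosphatase 10.

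The member called lower was Gh_D05G0174. It had 0.196, 0.188 and 0.109 CPM in WS48, against 0.408, 1.55 and 1.08 CPM in WW48, a log2 fold change of -2.49 ± 0.75 (SE; adjusted p = 0.0419, edgeR's quasi-likelihood test). The 2 groups did not overlap, at 5 reads in all in WS48 and 26 reads in WW48. The call was lost in 8 of the 12 fits that left out a library, including each fit without a WS48 library, where the log2 fold change was between -2.62 and -2.30. Among the other members of the named set, Gh_D06G0517 had a log2 fold change WS48/WW48 of -0.62 ± 0.24 (adjusted p = 0.102), Gh_Sca066383G01 one of -0.43 ± 0.45 (adjusted p = 0.557) and Gh_A05G1492 one of 0.41 ± 0.31 (adjusted p = 0.406, each by edgeR's quasi-likelihood test).

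WW24 replicate 2 moved the count of calls most, although it belongs to neither group of WS48/WW48. Without it, 5 members were called higher in place of 1: purple acid phosphatase 10 and, named after their values were seen, Gh_D03G1039, Gh_D04G0655, Gh_D10G1861 and Gh_D13G1594, with log2 fold changes between 1.01 and 1.21. With all libraries, their log2 fold changes were 0.98, 1.01, 1.18 and 1.12 with adjusted p-values of 0.047, 0.0661, 0.0662 and 0.0854 (edgeR's quasi-likelihood test). With all libraries Gh_D03G1039 thus passed on p and not on fold, as did Gh_D11G0352, with a log2 fold change of 0.72 ± 0.22 (SE) and an adjusted p of 0.0448 in the same model.

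Counted by overlap, all 3 WS48 libraries lay above all 3 WW48 libraries in 8 members (18.2%; background 22.7% of genes tested) and below them in 2 members (4.55%; background 19.3%). Beside purple acid phosphatase 10, the 8 were Gh_A07G0725, Gh_D05G2650, Gh_D07G2090, Gh_D10G1861, Gh_D10G2532, Gh_D11G0352 and Gh_D11G2804, named as the whole of this count. The 2 below were Gh_D05G0174 and Gh_Sca095298G01. Against WW24, all WS48 libraries lay above in 5 members (background 23.6%) and below in 3 (background 9.9%). None of these shares exceeded its background.

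Against WW24, the watered roots of similar length, 2 members were called higher in WS48 (background 3.57%) and 1 was called lower (background 3.9%). An unadjusted p under 0.05 was found in 3 members (6.82%), against 27.6% of the genes tested. The rule fixed WS24 relative to WS48 and WW24, and did not order those 2 groups. The members called higher were purple acid phosphatase 10 and Gh_D03G1039. Gh_D03G1039 had 26.3, 24.2 and 27.3 CPM in WS24 and 11.8, 6.5 and 10.9 CPM in WS48, against 3.99, 4.67 and 3.0 CPM in WW24 and 2.85, 6.68 and 5.21 CPM in WW48. Its WS48 libraries lay above all WW24 libraries and overlapped WW48 by the lowest WS48 library. The log2 fold change WS48/WW24 was 1.16 ± 0.31 (SE; adjusted p = 0.0279, edgeR's quasi-likelihood test). The call was lost without WW24 replicates 1 or 3 or WS48 replicates 1 or 3. The member called lower was again Gh_D05G0174, with a log2 fold change of -2.86 ± 0.73 (adjusted p = 0.023 in the same model), a call lost without WW24 replicate 3 or any WS48 library.

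**Figure D4:**
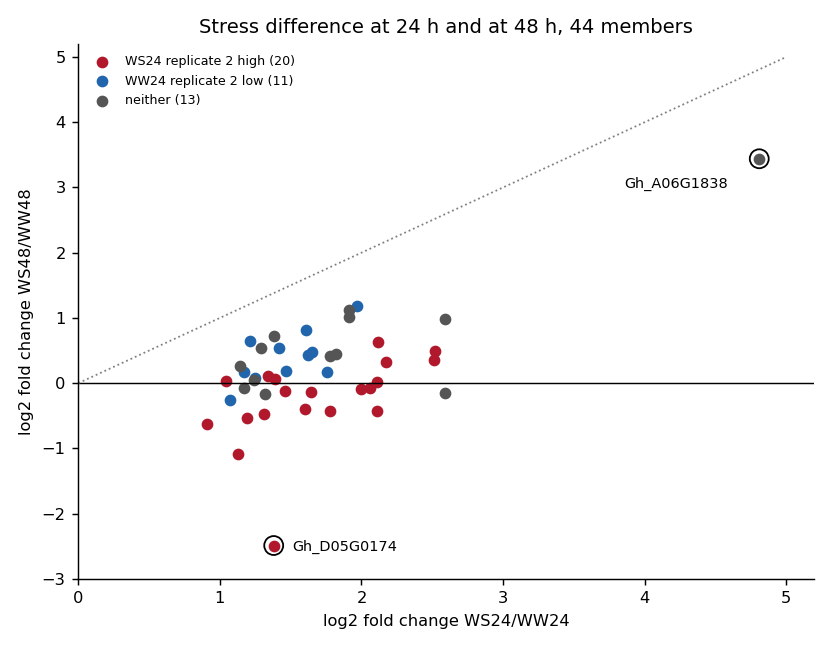
edgeR log2 fold change between stressed and watered roots at 24 h (WS24/WW24, x axis) and at 48 h (WS48/WW48, y axis) for the 44 members, coloured by library profile; the dotted line marks equal changes, and circles mark the 2 members called at 48 h. All members lie below the dotted line, which the rule fixes in large part, and most lie near 0 on the y axis, apart from Gh_A06G1838 at 3.44 and Gh_D05G0174 at -2.49.

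The part of the 24 h excess over WW24 that remained in WS48 was under 25% in 40 members and between 25% and 50% in 4, and 17 members had a WS48 mean below their WW24 mean. The rule's limit on R(WS24/WS48) holds this part under 50%, and lower still where the rise at 24 h was smaller. The counts, and the medians that follow, are description with no test. By profile, the median remaining was -4.87% in the 20 members high in WS24 replicate 2, 7.72% in the 11 low in WW24 replicate 2 alone and 19.1% in the 13 others. The change of the stress difference between 24 h and 48 h was also fitted as an interaction. No gene of 43938 passed an adjusted p of 0.05 (lowest 0.0664 over all genes and 0.123 among members), while 5160 genes (11.7%) and 32 of the 44 members had an unadjusted p under 0.05 in edgeR's quasi-likelihood test. The rule used 3 of the 4 groups in this contrast and held the other close to WW24, so the members' values there are no test of it.

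Genes with other courses under stress were set beside the members. A sustained set of 522 genes met the same conditions on the watered groups, was raised at 24 h (R(WS24/WW24) of at least 1) and kept R(WS24/WS48) within 0.5 of 0, with every stressed library above every WW24 library. The mirrored rule, with the roles of 24 h and 48 h exchanged under stress, found 9 genes. The members' medians of 12.1 CPM in WS24 and 4.23 CPM in WS48 compared, in the sustained set, with 15.3 CPM in WS24 and 14.1 CPM in WS48, against 5.52 CPM in WW24 and 6.17 CPM in WW48. The genes of the mirrored rule had medians of 1.96 CPM in WS24 and 4.76 CPM in WS48, against 1.84 CPM in WW24 and 1.56 CPM in WW48. In WS48 the members were near the level of their own watered roots, and the sustained genes near their level in WS24. The rules fix this contrast in large part, since R(WS24/WS48) was held within 0.5 of 0 in the sustained set and at least 1 in the members. It is given as description with no test.

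The sets differed in annotation and in library profile, given here as description. Their rules fix part of the difference in WS24 replicate 2, since a high WS24 library raises R(WS24/WS48), which members need and the other rules limit. Functions were available for 1 of the 44 members (2.27%), for 225 of the 522 sustained genes (43.1%) and for 1 of the 9 genes of the mirrored rule (11.1%). The tables that hold the functions were selected by the study on these samples, so these shares do not compare annotation alone. WS24 replicate 2 was high, at 1.5 times or more, in 20 members (45.5%), against 7 sustained genes (1.34%) and 0 of the 9, and 18.2% of members lay on scaffolds, against 1.15% of sustained genes and 0 of the 9. WW24 replicate 2 was low in 12 members (27.3%), against 141 sustained genes (27.0%) and 4 of the 9 (44.4%). The second profile was therefore not particular to the members in these counts.

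**Figure D5:**
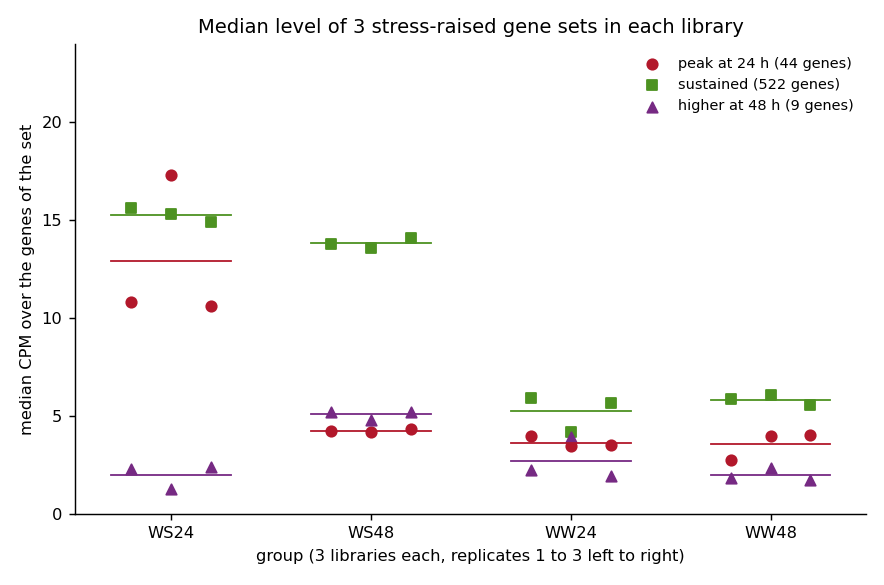
Median CPM over the genes of each set (y axis, linear from 0) in every library of WS24, WS48, WW24 and WW48 (x axis) for members (circles, 44 genes), sustained genes (squares, 522) and genes higher at 48 h (triangles, 9); lines are means of the 3 libraries. Members fall to about the watered level in WS48 (median of means 4.23 CPM), and WS24 replicate 2 is their highest point. Sustained genes stay at 14.1 CPM in WS48, where their rule holds them near WS24.

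Markers of the tissues in a root tip were summed by words in the functions. Only 1 member had a function, so no other could be in these lists, and it was in none of them. The functions came from tables that the study had selected on these samples. Differences between stressed and watered roots in these markers are therefore not independent evidence. Genes of dividing cells (13 genes) summed to 1060 to 1140 CPM in WS24 and 893 to 1040 CPM in WS48, against 496 to 584 CPM in WW24 and 439 to 505 CPM in WW48. Genes of xylem (17 genes) summed to 158 to 187 CPM in WS24 and 209 to 270 CPM in WS48, against 369 to 1170 CPM in WW24 and 898 to 1570 CPM in WW48. Phloem (29 genes, of which 4 were at 0 in WS24, 2 in WS48, 3 in WW24 and 1 in WW48) summed to 129 to 146 CPM in WS24 and 141 to 153 CPM in WS48, against 320 to 564 CPM in WW24 and 426 to 558 CPM in WW48. Between the stressed groups, where the members differ by the rule, sums of dividing-cell markers were somewhat higher and those of xylem markers lower in WS24. The sum of photosynthetic markers, given below, was also higher in WS24. No gene of any marker list was called in either direction in WS48/WS24 (edgeR). Root hair markers (5 genes) summed to 135 to 189 CPM in WS24 and 168 to 213 CPM in WS48, against 186 to 518 CPM in WW24 and 263 to 410 CPM in WW48. The root hair sums of the stressed groups overlapped each other and WW24, and lay below WW48. Markers of photosynthetic tissue (4 genes) summed to 19.3 to 20.6 CPM in WS24 and 8.29 to 11.5 CPM in WS48, against 40.6 to 59.6 CPM in WW24 and 26.4 to 36.0 CPM in WW48, and the single root cap gene had 7.68 to 9.03 CPM in WS24 and 6.18 to 7.73 CPM in WS48, against 0.615 to 2.47 CPM in WW24 and 2.06 to 2.45 CPM in WW48. Sums do not speak for every gene of a list. In WS48/WW48, 8 genes of dividing cells were called higher and 3 lower, 2 of xylem higher and 10 lower, 7 of phloem lower, 3 of root hairs higher, and 2 of photosynthetic tissue higher and 2 lower (edgeR). In WS24/WW24, 6 genes of dividing cells were called higher and 4 lower, 2 of xylem higher and 15 lower, 6 of phloem lower, 3 of root hairs higher and 2 lower, and 2 of photosynthetic tissue higher and 1 lower. The root cap gene was called higher in both comparisons. The part of these markers in the members' pattern was not tested.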

How the data were processed

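The authors checked the single-end reads with FASTQC, aligned them to the cotton assembly NAU-NBT v1.1 and counted reads per gene; the submitters' processing notes name HISAT2 1.0 and HTSeq 0.6.1. The deposited table holds raw counts, used here, and 12 columns of normalized values made by the authors with TMM and rounded (a score, not used). Reads in genes made up 60.9% to 68.8% of each library, and the 4 rows that name no gene were left out. CPM used totals over genes. Counts of 43938 genes were kept by edgeR's default filter, scaled by TMM (factors 0.857 to 1.0580) and fitted in 1 model of the 4 groups with edgeR 4.0.16 in R 4.3.3; an SE is the log2 fold change over the square root of its F statistic. On simulated WS48/WW48 counts of these 43938 genes, 68.7%, 85.1% and 97% of genes changed by a log2 of 1.5, 2 and 3 were recovered, with 4 false calls. The changed genes all had a mean above 1 CPM over the libraries, so the recovery does not cover rarer genes. Apart from the change, all groups were simulated from the same mean, with no outlying library. Alternatives were other scalings, no filter, DESeq2 1.42.0, limma-voom 3.58.1, the compared groups alone, a replicate block, other limits and leaving out each library. Text names members with a function and, of the others, the 2 with the largest R(WS24/WS48) and the 2 highest in WS24; other IDs are named as chosen after their values were seen. 1 gene was left out and is not reported here. Members and lists were chosen with earlier results of these data known.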

Additional observations from a re-analysis of the deposited data

Results flagged for a closer look

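In 2 members the difference between stressed and watered roots pointed in opposite directions at 24 h and 48 h in every library. All WS48 libraries lay below all WW48 libraries in 19.3% of the genes tested, a larger share than these 2 of 44 members. The direction at 48 h was therefore not particular to members. In Gh_D05G0174, all WS24 libraries (2.49 to 4.40 CPM) lay above all WW24 libraries (0.246 to 1.86 CPM), as the rule requires, and all WS48 libraries (0.109 to 0.196 CPM) lay below all WW48 libraries (0.408 to 1.55 CPM). The stress difference at 48 h minus that at 24 h was -3.87 ± 0.91 on the log2 scale (SE; adjusted p = 0.159, edgeR's quasi-likelihood test). In Gh_Sca095298G01, WS24 held 1.54, 5.18 and 2.60 CPM, against 1.41, 1.11 and 1.33 CPM in WW24, and WS48 held 0.884, 0.377 and 0.979 CPM, against 1.63, 1.40 and 1.62 CPM in WW48, a difference of -2.22 ± 0.66 (adjusted p = 0.233 in the same model). Neither passed the adjusted threshold, the direction at 24 h is fixed by the choice of members, and both genes had few reads (22 in WS48 in all for Gh_Sca095298G01).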

How the results depend on the processing

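The number of members lay between 40 and 57 with each library left out. It was 41 with TMM library sizes, 59 and 43 with pseudocounts of 0.1 and 1 CPM, 46 without the condition on overlap and 18 with a minimum R(WS24/WS48) of 1.5. Without WW24 replicate 2, 27 of the 44 members were picked again, and 36 to 44 without each of the other libraries. For the members low in WW24 replicate 2, R(WS24/WW24) was at least 1 in 7 of 12 without that library.

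Members called higher in WS48/WW48 numbered 1 with all libraries. They numbered 2 with library totals alone, limma-voom or only the compared groups, 3 with DESeq2 and 1 to 5 with a library left out (5 without WW24 replicate 2). Members called lower numbered 1, and 0 with limma-voom, only the compared groups, the replicate block or an adjusted p of 0.01, and 0 to 1 with a library left out. Of members called higher in WS48/WW24 there were 2, and 1 with only the compared groups or an adjusted p of 0.01, and 1 to 2 with a library left out. Of members called lower there was 1, and 0 with limma-voom, only the compared groups or an adjusted p of 0.01, and 0 to 1 with a library left out. The cause was not tested. Gh_D05G0174 was not tested with only the compared groups, since the filter removed it. The log2 fold change WS48/WW48 of purple acid phosphatase 10 was 3.32 to 3.59 with a library left out and kept its call in all 12 alternatives run for it. In Gh_D05G0174 it was -2.84 to -2.12, and the adjusted p was 0.0598 with the replicate block and 0.131 with limma-voom.

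The numbers of the replicates were not taken to pair the libraries, since the labels do not tie a number to a shared experiment. The correlation of the deviations of same-numbered WS48 and WW48 libraries ran between 0.003 and 0.255, against -0.338 to 0.202 for different numbers. Same-numbered libraries ran between 0.078 and 0.142 for WS48 with WW24, -0.023 and 0.38 for WW24 with WW48, and -0.179 and -0.033 for WW24 with WS24. Some pairing by number is thus possible. With the replicate block, members called higher in WS48/WW48 numbered 1 and lower 0, and in WS48/WW24 they numbered 2 and 1. The depth limits rare members most, with 5 reads for Gh_D05G0174 in the WS48 libraries.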
